A study of Mus musculus with 2 samples.

Results

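The receptor chains for the cytokines of type 2, or allergic, immunity were examined in spinal cord microglia of control mice and of mice with an atopic diathesis. They were taken as every probe on the array whose gene name is Il4ra, Il13ra1, Il2rg, Csf2ra, Csf2rb, Csf2rb2, Il3ra, Il5ra, Crlf2 or Il1rl1. This gave 10 of 34793 gene names and 15 of 55681 probes. Microglia are the macrophages that reside in brain and spinal cord; they were sorted from both kinds of mice, and their total RNA was amplified, labelled with Cy3 and hybridised to 1-colour Agilent expression arrays. The study set 1 control array, titled normal by the submitters, against 1 atopic diathesis array, titled activated. The term atopic diathesis means a predisposition to allergy. The strain, age and treatment of the mice, the making of the model and the number of animals behind each sample are not given in the sources used here.

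Cytokine receptors of this kind work as pairs of chains. The chain encoded by Il4ra binds IL-4 and joins either the common gamma chain Il2rg or Il13ra1, which also binds IL-13, and the pair signals through Janus kinases to the transcription factor STAT6. Csf2ra, Il3ra and Il5ra are the chains specific for GM-CSF, IL-3 and IL-5, and they share the signalling chain Csf2rb, of which the mouse has a close relative, Csf2rb2, used by IL-3. Crlf2 pairs with the IL-7 receptor chain to bind TSLP, and Il1rl1, also called ST2, pairs with Il1rap to bind IL-33 and signals through Myd88 and IRAK kinases. In microglia IL-4 and IL-13 are known to drive an alternative activation state, and GM-CSF is a growth factor for these cells in culture.

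Since each group is a single array, no difference can be checked against replicates, no test between groups can be made and all values describe these samples only. Both arrays lie on 1 slide, so array position and group cannot be told apart. In sorted cells measured in bulk, fewer cells carrying an RNA and less RNA per cell cannot be told apart. On the control array 24.1% of probes were well above background by the scanner software's call, and on the atopic diathesis array 27.6%. No spot was saturated. Genes are called measured if 1 or more of their probes passed that call on both arrays, which 9207 genes did. Differences are log2 signal in atopic diathesis minus control, relative to the median measured gene, and 3030 measured genes (32.9%) lay at least 2-fold from it. Of these 52.6% were higher in atopic diathesis, against 28.3% when the arrays were scaled on the 75th percentile of all probes and 42.0% after quantile normalization or in the deposited series values. The errors to be had are the scanner software's own for each spot and the spread between repeated spots of a probe, which had an SD of 0.21 for a log2 difference over 103 probes and gives a 95% interval of ± 0.41 for a gene with 1 probe. This interval covers spot error and leaves out animals, sorts and amplifications.

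All 11 microglia markers looked at, among them P2ry12, Tmem119 and Sall1, were measured, none as much as 2-fold from the median gene, and their median was -0.10. Defining markers of perivascular macrophages (0 of 6), monocytes (0 of 4), neutrophils (0 of 7) and dendritic cells (0 of 5) were well above background on neither array. Other blood cells left a few signals. Of 5 eosinophil markers 1 was measured (Siglec5, at 1 of its 2 probes, log2 difference 1.33). The summed signal of the eosinophil list was 307 in control and 680 in atopic diathesis. Of 8 mast cell and basophil markers 0 were above background in control and 1 in atopic diathesis (Mcpt4, signal 5.02 and 56.5), with summed signals of 52.2 and 111. Of 8 markers of T cells and innate lymphoid cells 1 was measured (Cd4, at 1 of its 2 probes, -0.28, summed signals 439 and 392). Of 5 B cell markers 1 was above background in control and 2 in atopic diathesis (summed 46.1 and 79.3). Among 8 genes of astrocytes, oligodendrocytes and endothelium, 3 were above background in control and 4 in atopic diathesis, and Pecam1, an endothelial and myeloid adhesion molecule, gave 5.64 on the control array and 127 on the other. The part of such cells in the values below was not tested.

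All 10 receptor chains had at least 1 probe well above background on at least 1 array. Of the 10, 7 were measured on both arrays (26.5% of all gene names were), 2 were above background in atopic diathesis only, Crlf2 and Il1rl1 (8.06% of all gene names), and 1 in control only, Il2rg (4.14%). Among the 7 measured, Csf2rb was at least 2-fold lower in atopic diathesis, where 15.6% of all measured genes were that much lower, and the other 6 lay within 2-fold. Near the chains' own signal levels past 2-fold differences were common: among 4561 measured genes in that signal range, 45.8% lay at least 2-fold from the median gene. Below the median gene lay 5 chains (Il4ra, Il13ra1, Csf2rb, Csf2rb2 and Il5ra) and above it 2 (Csf2ra and Il3ra), and their median was -0.48. In the same signal range 49.4% of genes lay below the median gene, with a median of 0.02. The spot interval lay wholly below 0 for 4 chains and wholly above 0 for 1, Csf2ra, so it left out 0 for 5 of 7. Among all measured genes it left out 0 for 64.2% and lay wholly below 0 for 31.6%, so such intervals are common on these arrays.

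**Figure D1:**
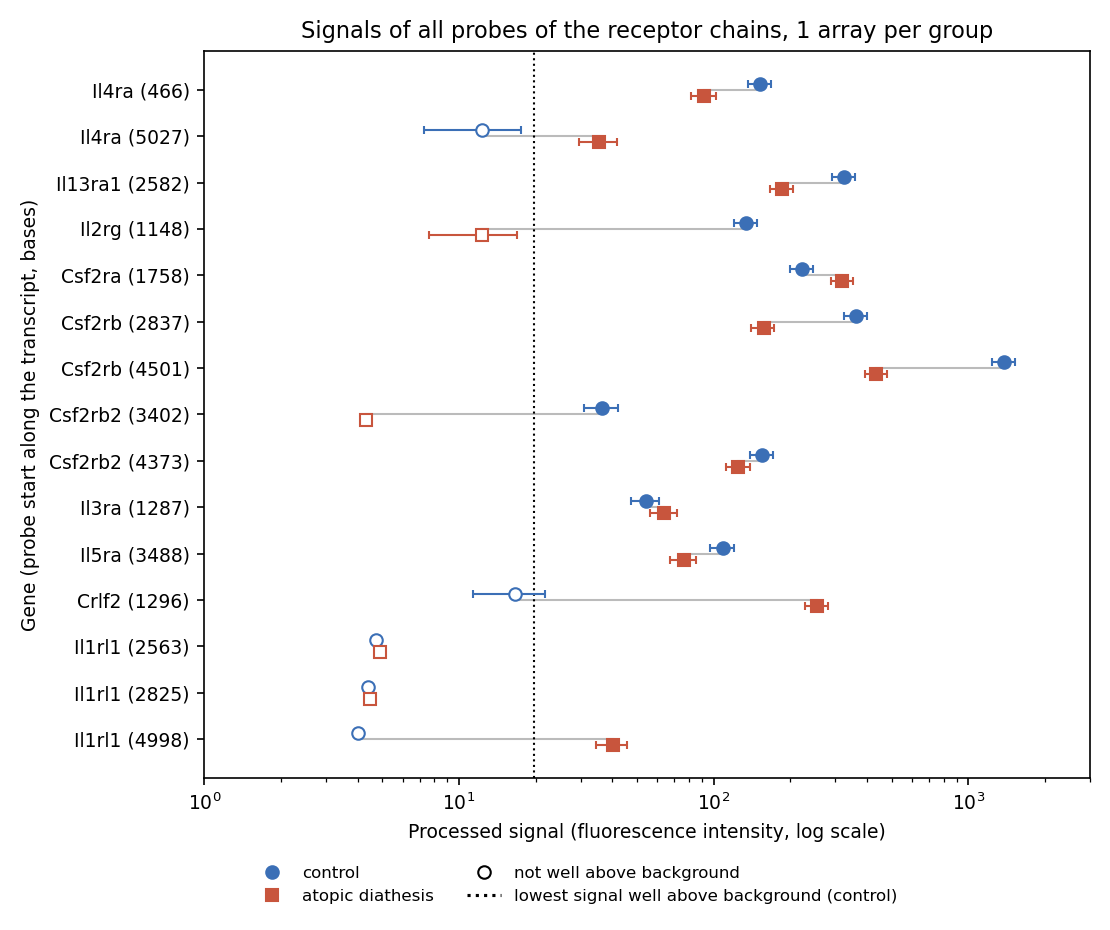
Processed signal (fluorescence intensity, log axis) of each of the 15 probes on the control array (circles) and the atopic diathesis array (squares), with the scanner software's error of the spot as bars, drawn where the signal is not the software's substitute for a spot near background. Open symbols were not well above background, and the dotted line is the lowest signal that was, 19.8 in control. Both Csf2rb probes were lower in atopic diathesis, and Crlf2 and Il2rg crossed the line in opposite directions.

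Probe sequences matter here because several genes rest on 1 probe and others on probes that differ. Each probe is 60 bases long, and the first 30 bases are shown, in lower case and 5′ to 3′ in the sense of the transcript, for Il4ra and Il1rl1, whose probes disagreed, and for Il2rg and Crlf2, whose only probe was well above background on 1 array. Within these probes the longest run identical to a probe of any other gene name was 13 to 16 bases. Positions give the probe's start along the transcript as the array's design lists it, and genome positions are on build mm9. An mm9 annotation was not used here, so exon and UTR borders around the probes were not analysed.
Il4ra, position 466: atcccgaggaacagtgccagcactgtgtgt
Il4ra, position 5027: acctgttgggaattccaaccctcaccagtc
Il2rg, position 1148: catcaatcctttgatggaacctcaaagtcc
Crlf2, position 1296: cctgtgcctgtctgtatgcaaatgtggtca
Il1rl1, position 2563: ctctgtaacaggatcttttgtctagatttc
Il1rl1, position 2825: ccttacccaaattgccattacagtcgagca
Il1rl1, position 4998: gccattgactccttgtgtgttttcttcatg

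Il4ra, the chain that all IL-4 and IL-13 signalling through STAT6 passes through, has 2 probes on chromosome 7. At the probe at transcript position 466 (chr7:132712550-132712609, plus strand) the signal was 152 ± 15.8 in control and 91.8 ± 10.1 in atopic diathesis, where ± is the scanner software's error of the spot. Relative to the median gene this was a log2 difference of -0.69 (spot interval -1.10 to -0.29), or 1.62-fold lower, and 21.7% of measured genes lay lower still. The probe at position 5027 (chr7:132722922-132722981, plus strand) ran the other way. Its signal was 12.4 ± 5.09 in control, not well above background, and 35.6 ± 6.10 in atopic diathesis, at least 1.84-fold higher. The 2 probes lie 4561 bases apart along the transcript and 10372 bases apart in the genome, so intervening sequence separates them. With the dimmer probe taken at its bound, the mean over both was 0.09. With that probe's control signal taken at face value, although it lies at background, the mean was 0.25 where detection on 1 array sufficed and 0.35 with no background filter. The probes thus differ in direction, and -0.69 describes the brighter one.

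Il13ra1, the partner that makes the receptor responsive to IL-13, has 1 probe at position 2582 (chrX:33710154-33710213, plus strand). Its signal was 325 ± 32.7 in control and 186 ± 19.0 in atopic diathesis. This was 1.71-fold lower relative to the median gene, a log2 difference of -0.77 (spot interval -1.18 to -0.36), and 19.8% of measured genes lay lower. The difference kept its sign in all 10 alternative ways of processing, between -1.27 and -0.62. With 1 probe, measured on both arrays, the background filters, the probe rule and the kept outliers moved only the median gene it is set against. They are thus no separate checks of its signals.

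Il2rg, the common gamma chain, shared by the receptors for IL-2, IL-4, IL-7, IL-9, IL-15 and IL-21, has 1 probe at position 1148 (chrX:98460130-98460189, minus strand). The signal was 134 ± 14.1 in control and 12.3 ± 4.63, not well above background, in atopic diathesis. A bound takes the place of a fold in such cases: the signal on the bright array divided by that on the dim array, or by the lowest signal called well above background there if that is higher, relative to the median gene. Il2rg was at least 6.59-fold lower in atopic diathesis. Of the 1442 genes above background in control only, 51.1% had a bound of at least 2-fold, and 230 (16.0%) had a bound as high as that of Il2rg. The bound ranged from 2.08 on signals with no background subtraction to 9.35 after quantile normalization. Of the other gamma chain partners, Il7r, the IL-7 chain that also pairs with Crlf2, had signals of 210 and 218 (log2 difference 0.08), Il15ra lay at 0.31 and Il21r at 0.06, and Il2ra, Il2rb and Il9r were well above background on neither array. These partner chains, and Il13ra2 below, were within 2-fold and are named after their values were seen.

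Csf2rb, the common beta chain that carries the signal of GM-CSF, IL-3 and IL-5, had the largest difference of the 7 chains measured on both arrays. At position 2837 (chr15:78179504-78179563, plus strand) the signal was 363 ± 36.6 in control and 157 ± 16.3 in atopic diathesis, 2.26-fold lower. At position 4501 (chr15:78181168-78181227, plus strand) it was 1381 ± 138 and 436 ± 43.8, 3.10-fold lower. Both probes were lower in atopic diathesis. Such accord was not universal on these arrays: of 1478 genes with several measured probes, 62.5% had them all on one side of the median gene. That share takes in genes near the median gene and genes with more probes than Csf2rb. Genes with a difference as large were not counted apart. The mean over both Csf2rb probes was -1.40 (spot interval -1.69 to -1.12), or 2.65-fold lower, and 10.1% of measured genes lay lower. Csf2rb stayed more than 2-fold lower in all 10 alternative ways of processing, between -1.90 and -1.17. Both its probes were measured, so the background filters and the kept outliers moved only the median gene they are set against.

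Csf2rb2, the relative of the common beta chain that serves IL-3 in the mouse, lies close by on the opposite strand of chromosome 15. At position 4373 (chr15:78113126-78113185, minus strand) the signal was 155 ± 16.2 in control and 125 ± 13.4 in atopic diathesis, a log2 difference of -0.28 (spot interval -0.68 to 0.13), so spot error alone covers it. At position 3402 (chr15:78114097-78114156, minus strand) it was 36.5 ± 5.59 in control and 4.30, a value the software substituted near background, in atopic diathesis, at least 1.79-fold lower. Both probes pointed downwards. With the dimmer probe taken at its bound, the mean over both was -0.56, within 2-fold. Values of -1.85 where detection on 1 array sufficed and -1.74 with no background filter take the substituted signal at face value.

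The paralogs can be set side by side because one probe of each covers the same stretch of the related transcripts. All probe pairs of the 2 genes were searched for the 30-base window with the most identical bases. In it, bases 30 to 59 of the Csf2rb probe at position 4501 align with bases 12 to 41 of the Csf2rb2 probe at position 4373. Of these 30 bases 27 are identical, and bases outside the window are not shown. Capitals mark the 3 that differ, A11G, C15T and C25A, counted from the 5′ end of the stretch with the Csf2rb base first.
Csf2rb, position 4501: ggcagatcaaAtgtCccttggtctCtgttc
Csf2rb2, position 4373: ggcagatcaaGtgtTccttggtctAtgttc
The probe for Csf2rb was 3.10-fold lower in atopic diathesis and that for Csf2rb2 1.21-fold lower. How far either probe also picks up the other transcript was not tested, so the split of signal between the paralogs is uncertain.

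The chains that give the beta chain its ligand did not follow Csf2rb past the 2-fold mark. Csf2ra, which binds GM-CSF, has 1 probe at position 1758 (chr19:61300336-61300395, minus strand), where control gave 222 ± 22.6 and atopic diathesis 320 ± 32.3. It was 1.47-fold higher, a log2 difference of 0.56 (spot interval 0.15 to 0.96), and 73.1% of measured genes lay lower. That value fell to 0.06 when the arrays were scaled on the 75th percentile of all probes, which puts the median measured gene at -0.50.

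Il3ra, which binds IL-3, has 1 probe at position 1287 (chr14:15187898-15187957, plus strand), with signals of 54.1 ± 6.84 and 63.9 ± 7.67. Its log2 difference of 0.27 (spot interval -0.13 to 0.68) is within spot error. The sign turned in 3 of 10 alternatives, to -0.23 on the 75th percentile of all probes and to -0.14 after quantile normalization and in the deposited series values. The deposited values nearly coincide with quantile normalization, so they are hardly separate alternatives. Il5ra, the IL-5 chain best known from eosinophils and B-1 cells, has 1 probe at position 3488 (chr6:106660378-106660437, minus strand). The signal was 109 ± 12 in control and 76.3 ± 9.14 in atopic diathesis, 1.39-fold lower, a log2 difference of -0.48 (spot interval -0.89 to -0.07). Of the eosinophil markers, Siglec5 gave 260 and 637 and made up most of the summed signal, and the other 4, Epx, Prg2, Ccr3 and Ear2, were above background on neither array. Of the B cell markers, Cd79b gave 5.43 and 37.0, and 3 were above background on neither array. Pax5 lay at 0.24 at 1 of its 2 probes. Its brighter probe ran the other way, with 26.6 in control and 8.28 in atopic diathesis.

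The shared beta chain and the GM-CSF chain lay on opposite sides of the median gene. Their spot intervals do not meet (-1.69 to -1.12 for Csf2rb, 0.15 to 0.96 for Csf2ra). How often the intervals of 2 measured genes part this way was not counted, and 64.2% of all measured genes had an interval that left out 0. The Csf2rb interval also treats its 2 probes, at -1.18 and -1.63, as repeats of one another. In the deposited series values, the authors' own normalization, the log2 differences were -1.31 and -1.59 for the Csf2rb probes and 0.45 for Csf2ra, without centring on the median gene.

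**Figure D2:**
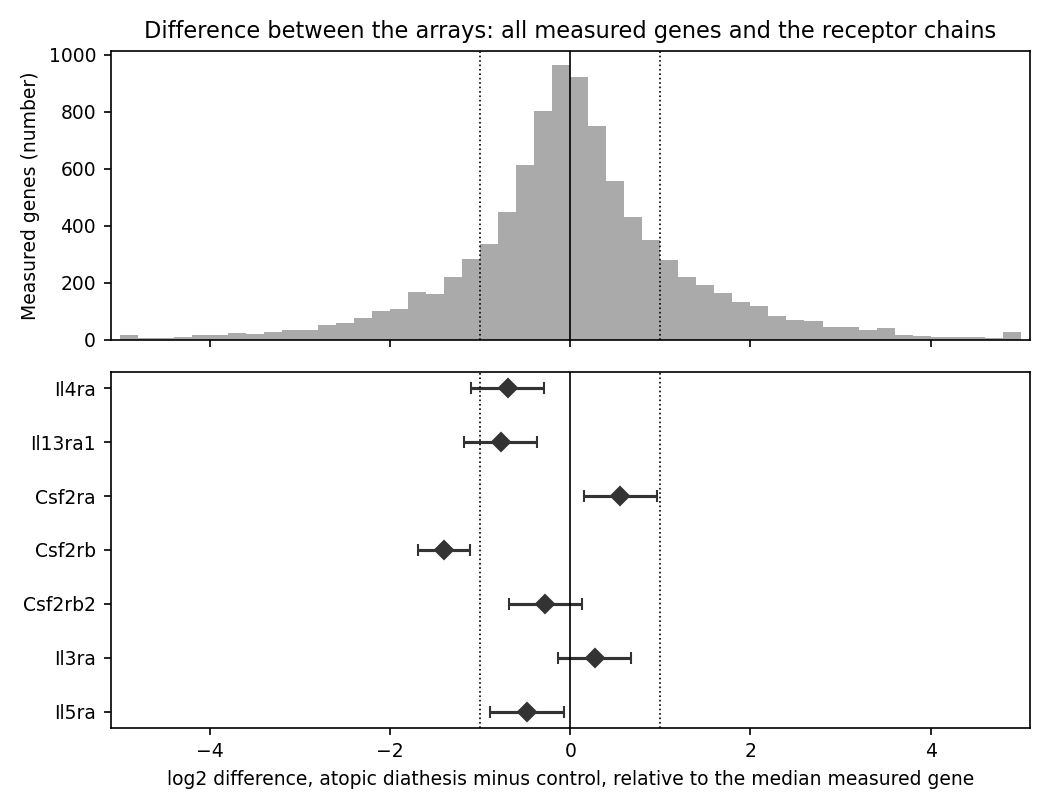
Upper panel: number of measured genes by log2 difference, atopic diathesis minus control relative to the median measured gene, in bins of 0.2, with genes beyond 5 in either direction counted in the end bins. Lower panel: the 7 receptor chains measured on both arrays with their spot intervals; the line at 0 is the median gene and dotted lines mark 2-fold. Csf2rb at -1.40 lies past the lower dotted line and the others lie between the lines.

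Crlf2, the chain specific for TSLP, the epithelial cytokine that starts many allergic responses, has 1 probe at position 1296 of its transcript variant 1 (chr5:109983732-109983791, minus strand). The signal was 16.5 ± 5.23 in control, not well above background, and 255 ± 26.0 in atopic diathesis. It was at least 13.2-fold higher in atopic diathesis. Of the 2806 genes above background in atopic diathesis only, 59.2% had a bound of at least 2-fold and 254 (9.05%) had a bound as high as that of Crlf2. The bound was 2.90 on signals with no background subtraction and 3.45 after normexp background correction, and between 9.32 and 14.0 under the other alternatives. Its partner Il7r stayed at 210 and 218, and the ligand Tslp was well above background on neither array.

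Il1rl1, the IL-33 receptor, has 3 probes on chromosome 1, and they tell its forms apart. The probe at position 2563 (chr1:40504769-40504828, plus strand) belongs to transcript variant 2, the short soluble form, which acts as a decoy for IL-33. Its signals were 4.73 and 4.89, both substituted near background. The probe at position 2825 (chr1:40520014-40520073, plus strand) belongs to variant 1, the long membrane-bound form, and gave 4.37 and 4.47, likewise substituted. The probe at position 4998 of the same variant (chr1:40522187-40522246, plus strand) gave 4.01, substituted, in control and 40.1 ± 5.75, well above background, in atopic diathesis, at least 2.07-fold higher. A bound as high was found in 1604 (57.2%) of the genes above background in atopic diathesis only, and it ranged from 1.25 to 2.20 over the alternatives. The signal above background therefore rests on 1 of 3 probes, and the other probe of the long form, 2173 bases upstream on the same transcript, was at background on both arrays. The partner chain Il1rap and the adaptor Myd88 were well above background on neither array. Of the 8 markers of mast cells and basophils, cells rich in this receptor, 7, among them Kit, Fcer1a, Ms4a2 and Cpa3, were above background on neither array, and Mcpt4 had signals of 5.02 and 56.5.

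Across the chains the choice of scale and of probes moved the count past 2-fold between 1 and 5. With the 75th percentile of all probes as the scale, Il4ra, Il13ra1 and Csf2rb were at least 2-fold lower. These were 3 of 7 chains, where 2501 of 9207 measured genes were that much lower and 37.9% lay past 2-fold in either direction. With probes above background on only 1 array let in, Il2rg, Csf2rb and Csf2rb2 were lower and Crlf2 and Il1rl1 higher, on signals that in part lie at background. These were 5 of 10 chains, beside 50.7% of 13548 genes past 2-fold where detection on 1 array sufficed. With no background filter the share was 24.7% of 34793 genes, of which 61.1% were well above background on neither array. Csf2rb was past 2-fold in every one of these settings.

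**Figure D3:**
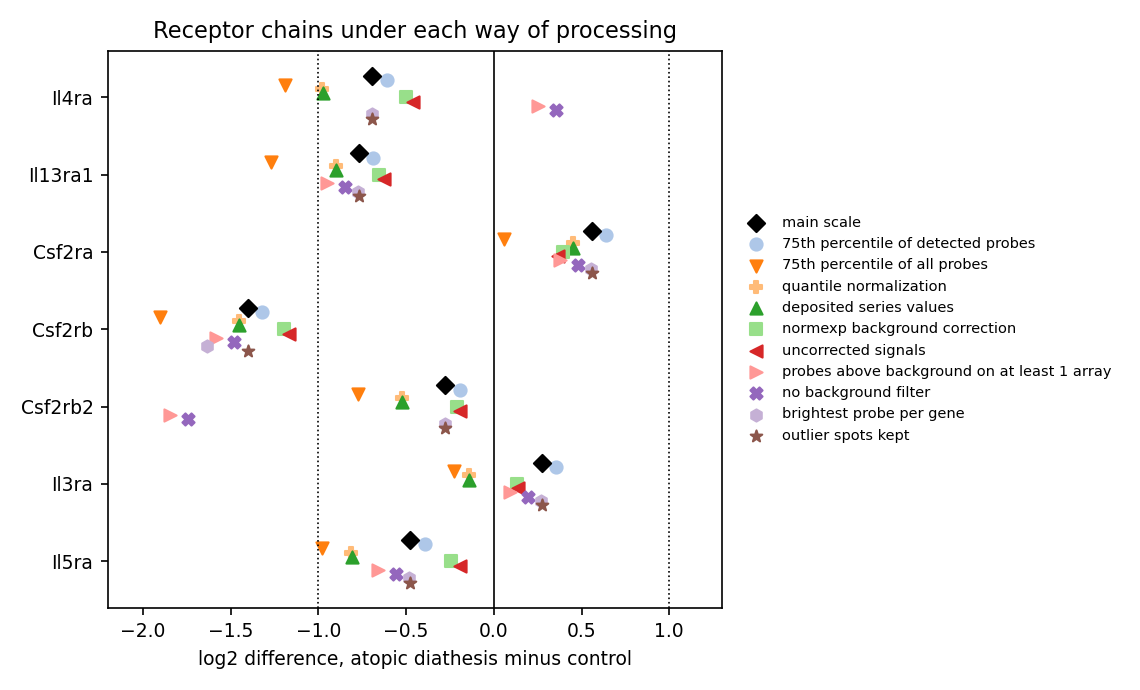
Log2 difference, atopic diathesis minus control, of the 7 receptor chains measured on both arrays under the main scale (black diamonds) and 10 alternative ways of processing (other symbols); dotted lines mark 2-fold. All Csf2rb values lie between -1.90 and -1.17, whereas Il4ra and Il3ra have values on both sides of 0.

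The rest of the pathway was followed in 6 lists of genes, 77 different genes in all. Of these 35 were measured, of which 10 (28.6%) lay at least 2-fold from the median gene, 6 higher and 4 lower, beside 32.9% of all measured genes. The split was 5 higher and 8 lower on the 75th percentile of all probes, 4 and 1 with normexp and 3 and 1 on uncorrected signals. Detection on a single array was found for 6 more in atopic diathesis and for 3 in control, and 33 were well above background on neither, as were 61.1% of all gene names. The median of the measured genes was 0.11.

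Of the 12 ligands, 10 were well above background on neither array, among them Il4, Il5, Il13, Il3 and Csf2. Il15, which signals through the common gamma chain, gave 7.99 in control, not well above background, and 46.3 in atopic diathesis, at least 2.40-fold higher. Il33, the ligand of Il1rl1, had 41.5 in control and 4.34, at background, in atopic diathesis, at least 2.04-fold lower. Bounds of 2-fold were common: 59.2% of genes above background in atopic diathesis only and 51.1% of those in control only reached them. Neither ligand's bound was followed through the other background corrections. Under these the bound of Il1rl1 fell from 2.07 to 1.34 with normexp and 1.25 on uncorrected signals. Il33 and Il1rl1 were above background on different arrays, each on a dim signal (41.5 and 40.1), and Il1rl1 at only 1 of 3 probes. How often a ligand and its receptor part this way was not counted. Of the 8 partner chains, 4 were measured, all within 2-fold, and 4 were above background on neither array; besides those given above, Il13ra2, the decoy chain for IL-13, gave 65.8 and 49.3 (log2 difference -0.39).

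Among the 20 kinases, STAT factors and adaptors, 15 were measured, with 3 higher, 3 lower and a median of 0.11. The kinase Irak4, downstream of Il1rl1, had 39.4 in control and 152 in atopic diathesis (log2 difference 1.98). Stat5a, activated by the beta chain and the gamma chain, had 43.5 and 139 (1.70) at its 1 probe. Its close relative Stat5b was lower, at -1.12 as the mean of 2 probes that differed in size. The brighter Stat5b probe had 1581 in control and 386 in atopic diathesis, a larger fall than that mean, so the other probe fell less. Stat3 lay at 1.07. Traf6, a ubiquitin ligase that acts after the IRAK kinases, had 175 and 43.2 (-1.99), and the phosphatase and adaptor Ptpn11 had 186 and 62.4 (-1.54). Tyk2, a Janus kinase used with Il13ra1, was above background in control only, at 48.0 against 23.3. It is named outside the rule after its values were seen. The dim signal exceeds the lowest one called well above background there (19.9), so 2.02-fold lower is a ratio of the signals and no bound. The size of several of these rests on the background subtraction: on normexp-corrected and uncorrected signals Ptpn11, Stat3, Stat5a and Stat5b were within 2-fold, with their signs kept. Irak4 lay at 0.98 and 1.07 on these signals, and Traf6 between -1.25 and -1.08. Stat3 was within 2-fold on the 75th percentile of all probes as well (0.57). Stat6, the main effector of Il4ra, had signals of 225 and 237 (0.11), and Jak1 lay at 0.44 and Jak2 at -0.23, all within 2-fold and named after their values were seen. Jak3, the kinase bound by Il2rg, was well above background on neither array. Irak4 and Stat3 have 2 probes each and Traf6 and Stat6 have 3, of which only 1 was measured per gene. The values of these genes thus rest on 1 probe. Such loss was common: of 3927 genes with several probes and at least 1 measured, 75.8% had some probe not measured.

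Of the 11 inhibitors of receptor signalling, 6 were measured, with 1 higher, 1 lower and a median of 0.30. Bcl6, a repressor that binds many STAT6 target sites, went from 27.0 on the control array to 362 on the other, a log2 difference of 3.78, between 3.28 and 3.86 under the 4 other scalings and between 2.06 and 2.27 under the 2 other background corrections. Ptpn6, the phosphatase SHP-1, had 851 and 386 (-1.11), and lay at -0.97 and -0.99 under the other background corrections. Stam2, an endosomal sorting adaptor that binds Jak2 and Jak3, was above background in atopic diathesis only, at 59.6 against 12.7, at least 3.08-fold higher. Socs1, Cish and Sigirr were well above background on neither array.

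Genes that IL-4 and IL-13 are known to induce in macrophages were detected about as often as genes at large. Of 18, 11 were well above background on neither array, near the 61.1% of all gene names, among them Arg1, Retnla, Chi3l3 and Mrc1, the usual marks of the alternative state. Of the 6 measured, 2 were higher and 0 lower, with a median of 0.24, beside 32.9% of all measured genes past 2-fold in either direction. Mgl2, a galactose-binding lectin, had 2063 and 6438 (1.67), and Ccl24, the eosinophil attractant eotaxin-2, had 30.3 and 145 (2.29). Under the 2 other background corrections Mgl2 lay between 1.55 and 1.59 and Ccl24 between 1.07 and 1.23. The other 4 (Egr2, Tgm2, Klf4 and Ppargc1b) lay within 2-fold, 3 of them below the median gene.

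Of 11 genes on the array that GM-CSF or IL-3 induce in myeloid cells, 4 were measured, all within 2-fold, with a median of -0.14. They were Bcl2l1 (-0.44), Irf4 (-0.59), Cd74 (0.66) and Itgax (0.16). Another 4, Cish, Ccl17, Ccl22 and Ccr7, were above background on neither array. The genes named so far in this list are named after their values were seen. The kinase gene Pim1 had 3.98, at background, in control and 146 in atopic diathesis, at least 7.53-fold higher. Osm, the cytokine oncostatin M, had 20.7 in control, not well above background, and 64.7 in atopic diathesis. That control signal exceeds the lowest one called well above background there (19.8), so 3.20-fold higher is a ratio of the signals and no bound. Batf3, a transcription factor of dendritic cells, had 549 in control and 3.97, at background, in atopic diathesis, at least 27.0-fold lower. Dendritic cell markers were above background on neither array (0 of 5).

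**Figure D4:**
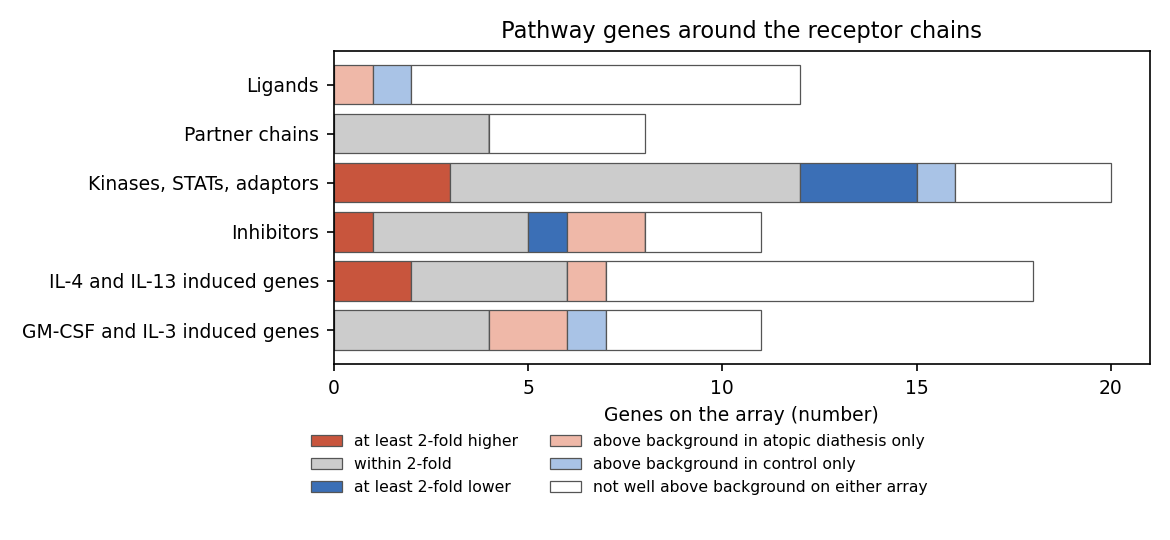
Number of genes of each pathway list that were at least 2-fold higher, within 2-fold or at least 2-fold lower in atopic diathesis relative to the median measured gene, above background on 1 array only, or not well above background on either. Of the ligands 10 of 12, and of the genes induced by IL-4 or IL-13 11 of 18, were not well above background on either, beside 61.1% of all gene names; of the kinases, STAT factors and adaptors 15 of 20 were measured, beside 26.5%.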

How the data were processed

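Total RNA of sorted microglia was isolated with TRIzol and purified on columns, per the labels' protocols, and 1 control and 1 atopic diathesis sample were hybridised to 1-colour arrays. The deposited scanner files hold a linear fluorescence intensity per spot, with background subtracted by Agilent Feature Extraction, version 10.7.1.1 per the file headers (9.5.1.1 per the submitters' processing notes). The deposited series table holds the authors' normalized linear intensity per probe; 100% of its sorted values matched between arrays to within 0.01 in log2, with a median of 6.64 in each, but no source used here names the normalization. Matched distributions of this kind are what quantile normalization gives. The deposited differences lay close to those after quantile normalization here (Il4ra -0.97 and -0.98, Csf2rb -1.45 and -1.45). The deposited values and quantile normalization are thus hardly separate alternatives. In both the median measured gene lay at -0.17, and the deposited values are no ratios. Probe coordinates are on mm9 per the file headers.

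Control spots were dropped, as were outlier spots flagged by the software (136 and 122), and repeated spots were averaged on the log2 scale. A gene's value is the mean over its probes well above background on both arrays, relative to the median measured gene, whose unscaled difference was -0.03. The 75th percentile of all probes, 20.7 and 28.6, lies among dim probes and was an alternative scale only. Spot error came from 103 probes, of 399 printed 10 times, that were well above background with at least 5 usable spots. Python 3.11.15 with pandas 2.3.3 and limma 3.58.1 in R 4.3.3 (normexp, offset 50) were used, and the steps were tested on simulated data. Gene names are those of the array design, and Spi1, Ly6c2 and Ifnlr1 of the lists were not matched. No test was possible with 1 array per group, and the number of arrays limits the precision.

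The receptor chains and the gene lists were chosen with earlier results of these data known. All 10 chains are reported with every probe. From each pathway list up to 6 genes are named that lay at least 2-fold from the median gene or had a bound of at least 2-fold, and ligands above background on any array; further genes are marked where named. No gene was named for a similar pattern, since 2 arrays give no measure of likeness. Alternatives were other scalings, background corrections, background filters, probe rules, kept outliers and a 1.5-fold threshold.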

Additional observations from a re-analysis of the deposited data

How the results depend on the processing

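The number of receptor chains past 2-fold was 1 of 7 and became 3 of 7 on the 75th percentile of all probes and at a 1.5-fold threshold. It was 5 of 10 when detection on 1 array sufficed and with no background filter, and stayed 1 of 7 in the other 7 alternatives. The pathway count of 10 of 35 (13 on the 75th percentile of all probes) became 5 with normexp, 4 on uncorrected signals and 17 at a 1.5-fold threshold. It was 20 of 44 when detection on 1 array sufficed and 17 of 77 with no background filter. Over all genes, the 3030 past 2-fold (32.9% of 9207) became 1974 (21.4%) with normexp and 1781 (19.3%) on uncorrected signals. When detection on 1 array sufficed the count was 6872 of 13548 (50.7%), with no background filter 8606 of 34793 (24.7%), and at 1.5-fold 4671 of 9207 (50.7%). The last of these lowers the threshold and the filters change which probes enter; for the other settings the cause was not tested. No chain past 2-fold reversed. Il4ra (2 of 10 alternatives) and Il3ra (3 of 10) changed sign, and Il13ra1, Csf2ra, Csf2rb, Csf2rb2 and Il5ra did not. For chains whose every probe was measured, the background filters and the kept outliers moved only the median gene, so the alternatives are not separate checks. Il5ra ranged from -0.98 to -0.19. Bounds of genes in the pathway lists were not followed through the alternatives. On uncorrected signals the bounds of Il2rg, Crlf2 and Il1rl1 fell to 2.08, 2.90 and 1.25. No paired analysis was possible because each group has 1 array. Signal over background limits Il1rl1, the dimmer Il4ra and Csf2rb2 probes and most ligands: in these, a signal not well above background does not show that the RNA is absent.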

Other observations

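Other cytokine receptor chains of the class I and class II families were set beside the type 2 chains, in a list drawn up after the data were seen. Of 30 on the array, 12 were measured, and on neither array were the other 18 well above background. Of the 12, 10 lay above the median gene, with a median of 0.85. On the 75th percentile of all probes, after quantile normalization and in the deposited values 8 lay above 0, with medians of 0.35, 0.41 and 0.40. On these scales 0 is not the median measured gene, which lay at -0.50, -0.17 and -0.17. The median was 0.34 with normexp and 0.31 on uncorrected signals. Il10ra, the ligand-binding chain for IL-10, gave 127 on the control array and 353 on the other (log2 difference 1.51). Both chains of the interferon gamma receptor were higher, Ifngr1 at 2979 and 6632 (1.19) and Ifngr2 at 5682 and 12346 (1.15), and so was the IL-6 chain Il6ra at 799 and 1614 (1.05); these 3 lay within 2-fold on the 75th percentile of all probes, and Il6ra also under both other background corrections. The shared IL-6 family chain Il6st ran the other way, at 3391 and 1027 (-1.69), and stayed past 2-fold under all 4 other scalings and both other background corrections.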
